A study of Mus musculus with 6 samples.

Results

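The AP-2 transcription factors of the mouse are encoded by 5 genes, Tfap2a, Tfap2b, Tfap2c, Tfap2d and Tfap2e, and their RNA was measured in maxillary prominences of E12.5 embryos with and without overexpression of Dlx2. The members were defined by gene symbol, as 5 of the 53801 genes in the count tables, and the family was chosen with earlier results of these data known. Of the 5 members, 3 had enough reads to be tested among 17514 genes. In Dlx2OE maxillary processes, Tfap2a was 2.79-fold and Tfap2b 2.99-fold the WT level. Tfap2c was 1.42-fold the WT level, a difference that did not pass the test, and Tfap2d and Tfap2e were below the detection floor in all 6 samples. For Tfap2a and Tfap2b every Dlx2OE sample was above every WT sample. The sample Dlx2OE 1 had the highest level of all 3 detected genes and set much of the size of these differences.

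The study compared 3 WT samples (C57BL/6J mice, with the strain label C57BL/6) with 3 samples of the genotype Wnt1cre; Rosa26Dlx2/-, called Dlx2OE, all of embryonic day 12.5. In Dlx2OE embryos, a cassette at the Rosa26 locus, in which the CAG promoter and a loxP-flanked stop precede a Flag-tagged Dlx2, is switched on by Cre under the control of Wnt1, which is active in the neural crest and in parts of the neural tube. The cassette was made in the same C57BL/6J background, and neither Cre nor the cassette was given for the WT samples, so effects of Cre itself and of Dlx2 cannot be told apart. The labels give 7 littermates and the methods 6 as the source of the RNA, so it is not stated whether a sample holds 1 embryo or a pool. The prominences were dissected whole and hold surface epithelium, nerves, vessels and blood as well as neural crest mesenchyme, and in such tissue fewer cells of a type and less RNA per cell cannot be told apart. Between 26155500 and 31308813 read pairs were assigned to genes per sample. A floor of 3 counts was used for detection, which is 0.0955 to 0.111 CPM (the usual scale of counts relative to the library total, here adjusted by the TMM method) and covers counting error only. The share of reads that fell on no annotated gene was 5.34% to 5.79% in WT samples, 6.03% in Dlx2OE 1, 8.21% in Dlx2OE 2 and 15.4% in Dlx2OE 3, so Dlx2OE 3 stood apart from the others in this measure. Dlx2 itself had 41.0 ± 5.32 CPM in WT samples and 124 ± 5.96 CPM in Dlx2OE samples (SD, n = 3 each) and rose by 1.60 ± 0.118 on the log2 scale (SE, adjusted p = 0.00241 by edgeR's quasi-likelihood test), and no sample went against its label. Reads of the cassette and of the endogenous Dlx2 gene cannot be told apart in these counts.

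AP-2 proteins bind GC-rich palindromic DNA as dimers, through a basic region and a helix-span-helix domain, and members can pair with each other. Tfap2a and Tfap2b act in the premigratory and migrating neural crest and in the ectoderm of the face, and loss of Tfap2a leaves the mouse face and neural tube unclosed. In people, mutations of TFAP2A cause branchio-oculo-facial syndrome and mutations of TFAP2B cause Char syndrome. Tfap2c is best known in trophoblast, germ cells and epidermis, Tfap2d in the developing midbrain and Tfap2e in the olfactory and vomeronasal system.

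The 5 genes lie at 4 places in the genome (GRCm38, GENCODE M21). Tfap2a (ENSMUSG00000021359) lies on chromosome 13 (reverse strand, 40715302 to 40738376) and has 9 annotated transcripts. Tfap2b (ENSMUSG00000025927) lies on chromosome 1 (forward strand, 19208914 to 19238576), 42567 bp beyond the end of Tfap2d (ENSMUSG00000042596), which spans 19103022 to 19166346 on the same strand. Tfap2c (ENSMUSG00000028640) lies on chromosome 2 (forward strand, 172549593 to 172558622), and Tfap2e (ENSMUSG00000042477) on chromosome 4 (reverse strand, 126716006 to 126736240). The longest coding transcripts encode 442 to 513 residues. The longest run of identical bases shared by transcripts of any 2 members was 29 bases, between Tfap2a and Tfap2b, against a read length of 150 bp.

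The promoters of the pair of members that rose together are shown because Dlx2 is a homeodomain protein, a class that binds DNA with the core TAATT. Each sequence is the 250 bases before a RefSeq transcription start (GRCm38.p6), written along the gene's strand. Capitals mark every TAATT on either strand. Both windows lie inside the gene's annotated span, because other transcripts start further upstream, and neither holds an annotated exon base of its own gene.
Tfap2a, chr13:40734921-40735170, reverse strand: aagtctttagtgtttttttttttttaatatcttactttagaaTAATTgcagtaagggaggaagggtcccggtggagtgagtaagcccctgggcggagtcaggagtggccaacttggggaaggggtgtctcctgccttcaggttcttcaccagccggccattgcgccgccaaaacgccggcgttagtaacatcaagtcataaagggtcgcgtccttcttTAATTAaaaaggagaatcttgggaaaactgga
Tfap2b, chr1:19211804-19212053, forward strand: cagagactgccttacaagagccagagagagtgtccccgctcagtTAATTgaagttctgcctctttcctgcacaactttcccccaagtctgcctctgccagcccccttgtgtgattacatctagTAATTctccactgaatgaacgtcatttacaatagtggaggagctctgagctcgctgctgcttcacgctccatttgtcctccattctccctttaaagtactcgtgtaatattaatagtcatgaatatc

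A second RefSeq start of Tfap2a, whose window holds 180 exon bases of the gene and is not printed, had no match to TAATT. The printed Tfap2a window held 3 matches to TAATT, of which 2 overlap on opposite strands in a single palindromic core near the start site, and the Tfap2b window held 2. TAATT was found in 25.0% of the 32817 promoter windows of this length in the same table, so a match is common. The AP-2 palindrome GCCNNNGGC, which reads the same on both strands and was present in 13.7% of all windows, was found in none of the 3 windows. These matches describe the sequence and are not measured binding sites.

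Tfap2a, which is required for closure of the face, had 389, 369 and 405 counts in the WT samples, in the order 1 to 3, and 1496, 755 and 888 counts in the Dlx2OE samples. Scaled, these levels were 13.3, 12.2 and 13.0 CPM in WT samples and 50.5, 24.0 and 32.8 CPM in Dlx2OE. The WT samples lay close together, every Dlx2OE sample was above them, and Dlx2OE 1 was the highest. The mean rose from 12.8 ± 0.539 to 35.8 ± 13.5 CPM (SD, n = 3 each). This was a log2 fold change of 1.48 ± 0.25 (SE), with an adjusted p of 0.0207 in edgeR's quasi-likelihood test (adjusted over 17514 genes by the Benjamini-Hochberg method). Tfap2a ranked 305 among these genes by p. Without Dlx2OE 1 the log2 fold change was 1.14 and still passed (adjusted p = 0.0109, edgeR). The call was lost without WT 1 (adjusted p = 0.0768) and without WT 2 (adjusted p = 0.104). The log2 fold change stayed between 1.14 and 1.70 whichever sample was left out.

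Tfap2b, the paralogue that is also active in branchial neural crest and ectoderm, had 864, 1395 and 1802 counts in the WT samples, given in the same order, and 6338, 2867 and 2555 counts in the Dlx2OE samples. The levels came to 29.5, 46.3 and 57.8 CPM in WT samples and 214, 91.3 and 94.3 CPM in Dlx2OE. The genotypes did not overlap, and Dlx2OE 1 had over 2 times the level of the other Dlx2OE samples. The mean rose from 44.5 ± 14.2 to 133 ± 69.9 CPM (SD, n = 3 each). On the log2 scale it rose by 1.58 ± 0.371 (SE) with an adjusted p of 0.0464 (edgeR), just inside the threshold of 0.05, and the rank by p was 1048. The size rested on Dlx2OE 1: without that sample the log2 fold change was 1.05, which still passed (adjusted p = 0.0327, edgeR). The call was lost without WT 1 (adjusted p = 0.13), WT 2 (0.167), Dlx2OE 2 (0.0705) or Dlx2OE 3 (0.0625), and under 3 of 8 other processing choices.

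Tfap2c, the member known from trophoblast and epidermis, was counted 733, 853 and 911 times in the WT samples and 1563, 1180 and 719 times in the Dlx2OE samples. Its level was 25.0, 28.3 and 29.2 CPM in the WT samples and 52.8, 37.6 and 26.5 CPM in Dlx2OE. Dlx2OE 1 and 2 were above every WT sample, whereas Dlx2OE 3 lay within the WT range, so the genotypes overlapped. The means were 27.5 ± 2.19 and 39.0 ± 13.2 CPM (SD, n = 3 each), with a log2 fold change of 0.50 ± 0.226 (SE, adjusted p = 0.182, edgeR). The difference passed under none of 8 other processing choices and with none of the 6 samples left out, and without Dlx2OE 1 the log2 fold change was 0.21.

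Tfap2d had 1 count in WT 3, 1 count in Dlx2OE 1 and 0 counts in the other 4 samples. Tfap2e had 1 count in Dlx2OE 3 and 0 counts in the other 5 samples. Both genes were below the floor of 3 counts in every sample, so they were not tested and no fold change is given. At this depth expression of either gene below about 0.1 CPM could not have been seen.

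**Figure D1:**
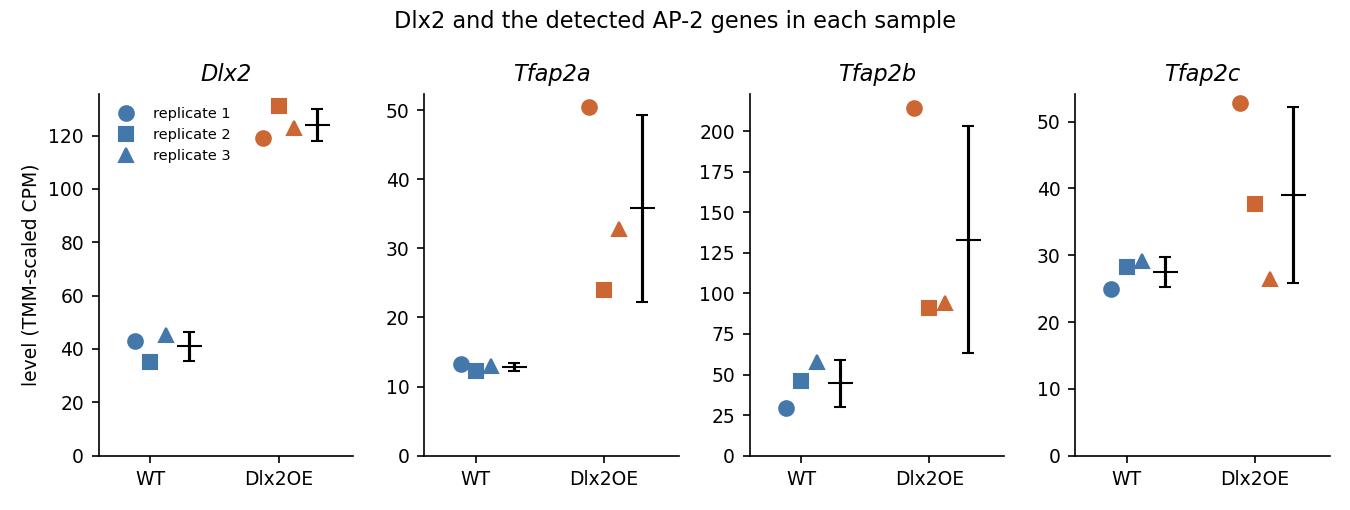
Levels of Dlx2, Tfap2a, Tfap2b and Tfap2c in each sample (TMM-scaled CPM, linear axes from 0, with a scale of its own for each gene), with blue for WT and orange for Dlx2OE, marker shapes for the replicate numbers, and a black dash and bar for the mean and SD of 3 samples. The genotypes do not overlap for Dlx2, Tfap2a and Tfap2b, Tfap2c overlaps at 26.5 CPM in Dlx2OE 3, and Dlx2OE 1 is the highest sample for all 3 AP-2 genes but not for Dlx2.

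Of the 3 members tested, 2 were called higher in Dlx2OE, where 2.99% of all tested genes were called higher and 6.45% in either direction. The family was chosen with earlier results of these data known, so such shares give the background and are not a test. With a log2 fold change above 1 required as well, the count was still 2, against 1.5% of all genes. DESeq2 also called Tfap2a (adjusted p = 4.91e-07) and Tfap2b (adjusted p = 0.0201) and not Tfap2c (adjusted p = 0.129), where it called 7.05% of genes higher. For 2 of the 3 members every Dlx2OE sample was above every WT sample, which was so for 16.7% of all genes. For single genes, exact permutation of the 6 samples (two-sided) gave p = 0.1 for Tfap2a and for Tfap2b, the smallest p this design allows, and p = 0.3 for Tfap2c.

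**Figure D2:**
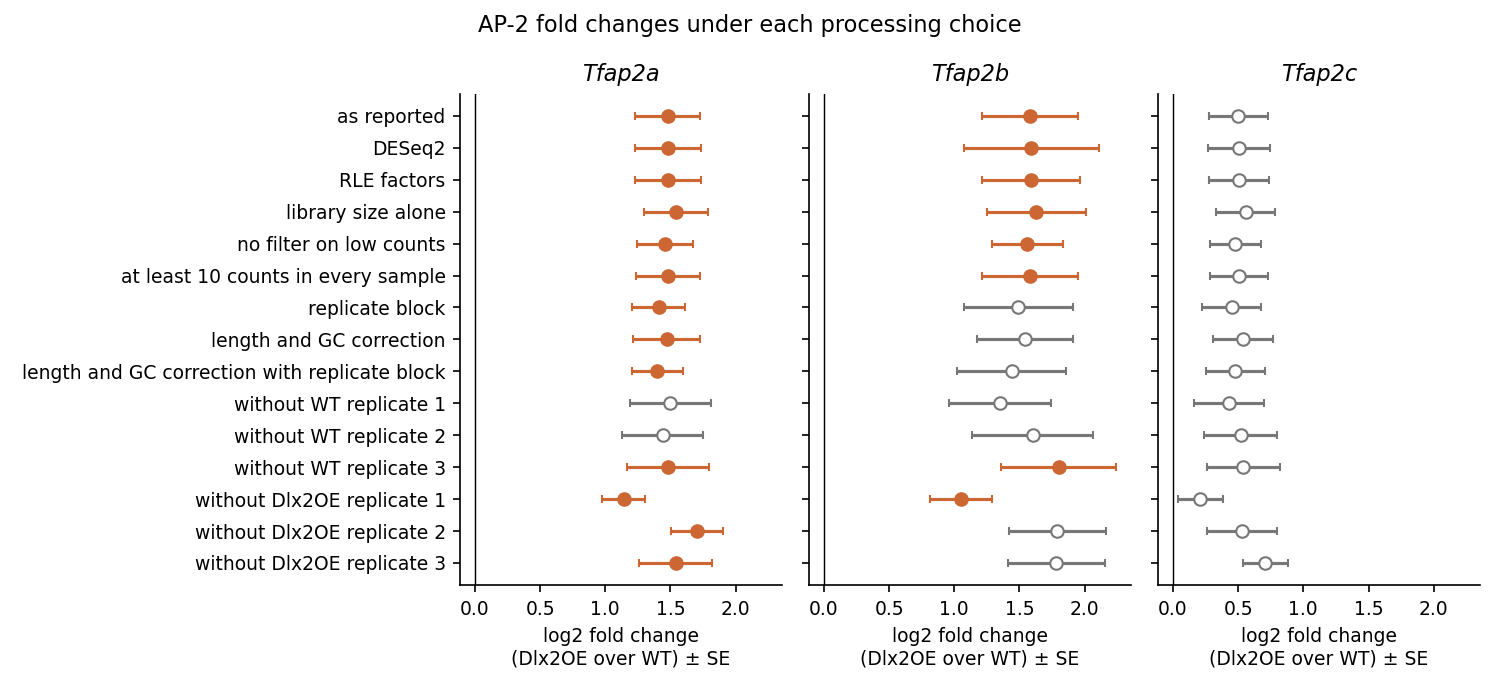
Log2 fold change of Dlx2OE over WT, with its SE, for Tfap2a, Tfap2b and Tfap2c as reported and under each other processing choice or with 1 sample left out; filled orange points have an adjusted p under 0.05 and open grey points do not. Every point lies above 0, Tfap2a ranges from 1.14 to 1.70, Tfap2b from 1.05 to 1.80 and Tfap2c from 0.21 to 0.71.

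Levels were compared between members per exon length, as RPKM (CPM divided by the merged exon length in kb). The detected members summed to 14.2, 17.5 and 19.7 RPKM in the WT samples. Their sum was 58.4, 29.5 and 28.8 RPKM in the Dlx2OE samples, so the family as a whole was higher in every Dlx2OE sample. In WT, Tfap2c had 7.48 ± 0.596, Tfap2b 7.03 ± 2.24 and Tfap2a 2.62 ± 0.11 RPKM (SD, n = 3 each). Tfap2a was below both others in every WT sample, whereas the order of Tfap2b and Tfap2c changed from sample to sample, so they did not differ beyond their spread. In Dlx2OE, Tfap2b led with 33.8, 14.4 and 14.9 RPKM, followed by Tfap2c with 10.6 ± 3.58 and Tfap2a with 7.30 ± 2.75 RPKM (SD, n = 3 each). Tfap2b was the highest of the 3 in every Dlx2OE sample. Tfap2a was below Tfap2c in each of them, but the means differed by less than the SD of Tfap2c.

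The makeup of the family was also compared. Tfap2c supplied 48.0%, 44.0% and 40.3% of the summed RPKM in the WT samples. In the Dlx2OE samples its share was 24.6%, 34.6% and 25.1%, with means of 44.1 ± 3.88% and 28.1 ± 5.66% (SD, n = 3 each). Tfap2b supplied 40.3 ± 6.81% in WT and 52.8 ± 4.59% in Dlx2OE, and Tfap2a 15.6 ± 3.07% and 19.2 ± 3.56% (SD, n = 3 each). The Tfap2c share was lower in every Dlx2OE sample than in any WT sample, the Tfap2b share was higher in every one, and the Tfap2a shares overlapped. These ratios within a sample do not depend on library scaling. The 3 pairs of members were compared by their log2 ratio per length, with exact two-sided permutation tests whose smallest p is 0.1. The ratio of Tfap2b to Tfap2c was -0.14 ± 0.377 in WT and 0.92 ± 0.384 in Dlx2OE (SD, n = 3 each), a difference of 1.07 with p = 0.1 in the exact test and 0.15 after adjustment over 3 pairs. The ratio of Tfap2a to Tfap2c was -1.51 ± 0.16 in WT and -0.55 ± 0.477 in Dlx2OE, a difference of 0.96 with the same p-values. The ratio of Tfap2a to Tfap2b was -1.37 ± 0.523 and -1.47 ± 0.288, a difference of -0.11 (exact p = 0.8, adjusted 0.8), smaller than its spread between samples. Neither ratio to Tfap2c overlapped between genotypes, but a test of this size cannot pass the threshold of 0.05.

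**Figure D3:**
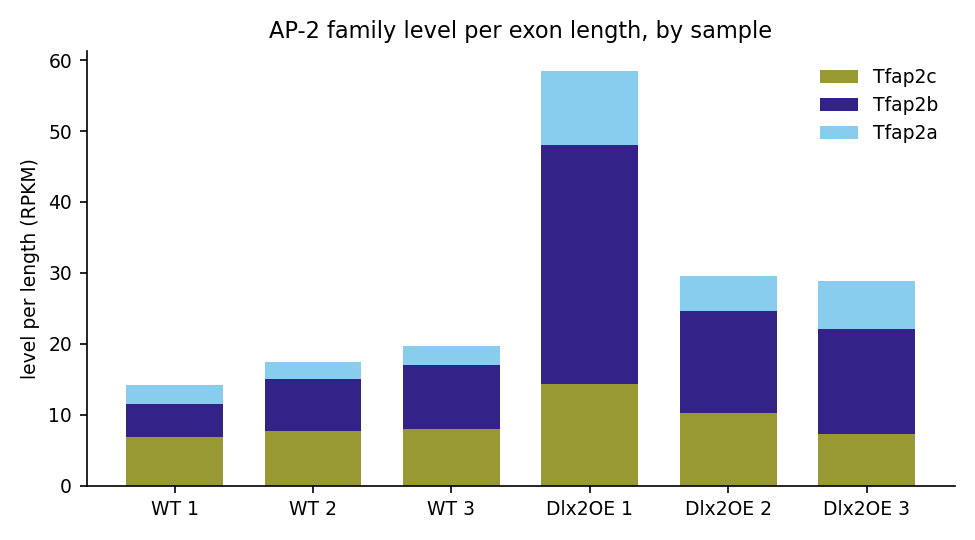
Level per exon length (RPKM, stacked bars from 0) of Tfap2a, Tfap2b and Tfap2c in each of the 6 samples, with Tfap2d and Tfap2e left out because they were below the floor. The bars reach 14.2 to 19.7 RPKM in WT and 28.8 to 58.4 RPKM in Dlx2OE, and the Tfap2b segment is the largest in every Dlx2OE sample.

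The genes around the members were looked at next. The Tfap2a locus holds 3 annotated antisense genes. Gm26688, whose annotated end lies in the Tfap2a promoter window shown above, was counted 7, 5 and 10 times in the WT samples and 27, 23 and 19 times in the Dlx2OE samples (log2 fold change 1.67 ± 0.374 SE, adjusted p = 0.0418, edgeR). That call held in 1 of the 6 fits with a sample left out, the one without WT 3, and DESeq2 did not make it (adjusted p = 0.0694). Gm47061 was counted 7, 11 and 4 times in WT samples and 40, 27 and 15 times in Dlx2OE samples, a log2 fold change of 1.90 ± 0.499 that did not pass (SE, adjusted p = 0.0585, edgeR), and Gm47067 had at most 3 counts. The levels of all 3 antisense genes were under 1.4 CPM, and the strand setting of the counting is not stated, so reads of Tfap2a and of these genes cannot be told apart. Exons of other genes cover 14.64% of the merged exon length of Tfap2a, 8.75% of that of Tfap2d and none of that of Tfap2b, Tfap2c and Tfap2e. Where strand is not used, union-mode counting assigns a read on such shared bases to no gene.

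The nearest coding neighbours were mostly silent or did not pass the test. Gcnt2, which makes branched glycans and lies 121377 bp from Tfap2a, had 6.26 ± 2.4 CPM in WT and 3.65 ± 0.527 in Dlx2OE (SD, n = 3 each), and Ofcc1, on the other side of Tfap2a, had at most 6 counts. Tfap2b lies between Tfap2d and Pkhd1, a cilium gene of kidney tubules with at most 9 counts, so Tfap2b was the one gene of this stretch with a level above 1 CPM among its coding neighbours. Bmp7, a BMP ligand 309389 bp from Tfap2c, had 74.2 ± 12.2 CPM in WT and 77.6 ± 31.6 in Dlx2OE (SD, n = 3 each), with a log2 fold change of 0.06 ± 0.262 (SE, adjusted p = 0.883, edgeR). By sample it had 60.7, 77.6 and 84.4 CPM in WT and 114, 58.2 and 60.6 CPM in Dlx2OE, so Dlx2OE 1 was again the highest. Fam209, on the other side of Tfap2c, had at most 7 counts. Next to the silent Tfap2e, the proteasome subunit gene Psmb2 (log2 fold change -0.39 ± 0.171 SE, adjusted p = 0.176, edgeR) and Ncdn (0.16 ± 0.141 SE, adjusted p = 0.457, edgeR) were expressed in all samples. Inside or beside Tfap2d, the antisense gene Gm15825 and the coding gene Defb41 had no count, and the pseudogene Gm10075 had 2 to 19 counts and was not tested.

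Genes of proteins that bind AP-2 factors were a list of 12, all of them tested. In Dlx2OE it had 1 member called higher, 1 called lower and 10 that did not pass, with a median log2 fold change of 0.03. Of all tested genes, 2.99% were called higher and 3.46% lower, and the median was 0.00. Crebbp, which encodes the acetyltransferase CBP recruited to AP-2 by CITED adaptors, had 83.2, 85.3 and 106 CPM in WT and 144, 126 and 158 CPM in Dlx2OE, a log2 fold change of 0.64 ± 0.133 (SE, adjusted p = 0.0348, edgeR). Its relative Ep300 had 127 ± 18.8 and 168 ± 10.4 CPM (SD, n = 3 each) and a log2 fold change of 0.41 that did not pass (adjusted p = 0.086, edgeR). Sub1, the coactivator PC4, fell from 372 ± 69.6 to 213 ± 18.0 CPM (SD, n = 3 each), with a log2 fold change of -0.80 ± 0.157 (SE, adjusted p = 0.0304, edgeR). The inhibitors Kctd1 (log2 fold change 0.14, adjusted p = 0.551) and Kctd15 (0.21, adjusted p = 0.178) and the adaptor Cited1 (-0.91, adjusted p = 0.0678) did not pass in edgeR's test. DESeq2, which called 1186 genes higher (7.05%) and 1428 lower, called 2 of the list higher and 2 lower. Ep300 (higher, adjusted p = 0.0353, DESeq2) and Cited1 (lower, adjusted p = 0.0105, DESeq2) were among these. In edgeR's test, Crebbp and Sub1 each kept their call with 2 of the 6 samples left out in turn and lost it without WT 1, WT 2, Dlx2OE 2 or Dlx2OE 3. Crebbp also lost its call under a correction for length and GC content, with or without a replicate block.

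Genes known to hold AP-2 sites or to depend on AP-2 factors in neural crest, epidermis or cell lines were a list of 14, of which 13 were tested. Of these, 1 was called higher, 1 lower and 11 did not pass, where 2.99% of all tested genes were called higher and 3.46% lower. The log2 fold change was above 0 for 7 and below 0 for 6, with a median of 0.08 against 0.00 for all tested genes. Alx4, a homeobox gene of the frontonasal and maxillary mesenchyme, had 66.1, 48.8 and 57.9 CPM in WT and 195, 160 and 98.7 CPM in Dlx2OE, a log2 fold change of 1.39 ± 0.239 (SE, adjusted p = 0.0211, edgeR). Krt18, a keratin of simple epithelia, had 52.8, 108 and 63.2 CPM in WT and 27.4, 21.6 and 13.3 CPM in Dlx2OE, a log2 fold change of -1.85 ± 0.327 (SE, adjusted p = 0.0233, edgeR). Both basal keratin genes were highest in Dlx2OE 1. Krt5 had 42.7, 91.7 and 79.5 CPM in WT and 538, 121 and 147 CPM in Dlx2OE, a log2 fold change of 1.91 ± 0.572 that did not pass (SE, adjusted p = 0.0792, edgeR). Krt14 had 129, 254 and 182 CPM in WT and 490, 113 and 112 CPM in Dlx2OE, so that Dlx2OE 1 was above and the other Dlx2OE samples were below every WT sample. Alx1, another Alx gene of the facial mesenchyme, split in the same way, with 72.4, 61.3 and 63.8 CPM in WT and 97.2, 23.5 and 19.5 CPM in Dlx2OE. Without Dlx2OE 1, 5 genes of the list were called in place of 2, of which 1 was higher and 4 were lower. Alx1 and Cdh1 were among those added, and the median log2 fold change of the list was -0.371 in that fit. Without WT 2 or Dlx2OE 2 none was called. The Alx4 call was lost without WT 1, WT 2 or Dlx2OE 2, and that of Krt18 without WT 2, Dlx2OE 2 or Dlx2OE 3. Alx4 also lost its call under a correction for length and GC content.

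Regulators of neural crest specification other than AP-2 and Dlx genes were a list of 18, of which 17 were tested. Of these, 2 were called higher and 15 did not pass in edgeR's test, with a median log2 fold change of 0.19. Of all tested genes, 2.99% were called higher in this test, and the median was 0.00. None of the list was called lower in edgeR's test or by DESeq2, with 1 lower at an unadjusted p under 0.05. However, Id2 was called lower without WT 3 and Sox9 without the filter on low counts (both edgeR). Twist1, a basic helix-loop-helix factor of crest mesenchyme, had 201, 189 and 260 CPM in WT and 347, 361 and 313 CPM in Dlx2OE (log2 fold change 0.65 ± 0.143 SE, adjusted p = 0.0402, edgeR). Mycn, which sustains growth of progenitors, rose from 37.6 ± 3.95 to 59.8 ± 1.67 CPM (SD, n = 3 each), or by 0.67 ± 0.105 on the log2 scale (SE, adjusted p = 0.0174, edgeR). Pax3, a paired-box factor of the crest, had 11.1 ± 6.32 and 45.4 ± 24.5 CPM (SD, n = 3 each) and did not pass (log2 fold change 2.03, adjusted p = 0.0544, edgeR). DESeq2, which called 7.05% of genes higher, called 4 of the list higher. Pax3 (adjusted p = 0.0188, DESeq2) and Msx1 (adjusted p = 0.00843, DESeq2) were among these. Abundant members that did not pass in edgeR's test were Id2, with 205 ± 53.1 CPM in WT and 160 ± 20.8 in Dlx2OE, Id3, with 173 ± 7.76 and 176 ± 26.6 CPM, and Msx1, with 134 ± 13.1 and 224 ± 73.7 CPM (SD, n = 3 each). Foxd3, which acts early in the crest, had no count in any sample. Twist1 kept its call in 1 of the 6 fits with a sample left out, the one without WT 3, and Mycn in 3, losing it without WT 2, Dlx2OE 2 or Dlx2OE 3.

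**Figure D4:**
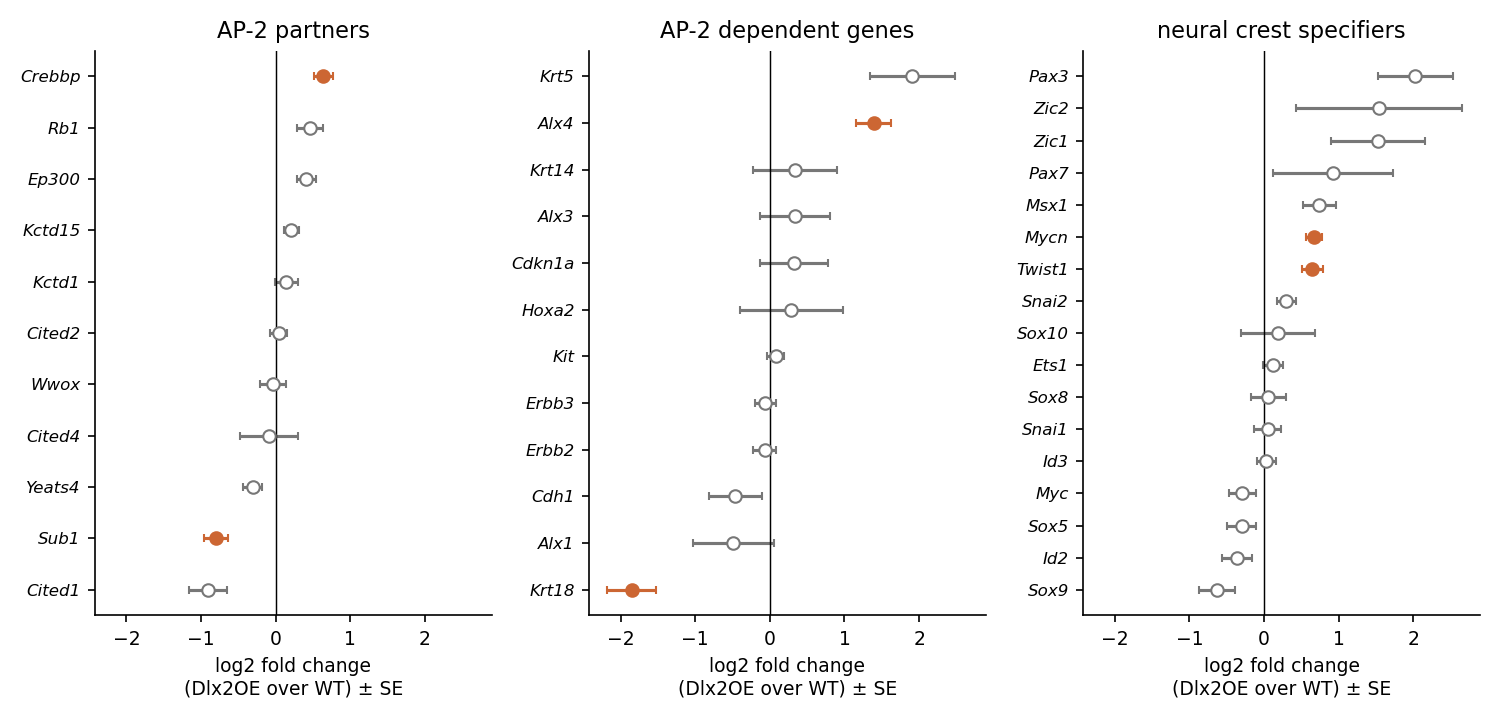
Log2 fold change of Dlx2OE over WT, with its SE, for tested genes of 3 lists: proteins that bind AP-2 factors, genes that depend on AP-2 factors, and other regulators of neural crest specification. Filled orange points have an adjusted p under 0.05 (Crebbp, Sub1, Alx4, Krt18, Mycn and Twist1) and open grey points do not, and in each list genes lie on both sides of 0.

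AP-2 genes are expressed both in neural crest mesenchyme and in surface epithelium, so markers of the cell types in the tissue are given beside the AP-2 values. The summed level of 16 surface epithelium markers was 973 to 1680 CPM in WT, 2090 CPM in Dlx2OE 1, 723 CPM in Dlx2OE 2 and 708 CPM in Dlx2OE 3. Dlx2OE 1, the sample with the highest Tfap2a, Tfap2b and Tfap2c, thus also had the highest epithelial sum, to which Krt5 and Krt14 contributed the most, while its Epcam level of 118 CPM lay within the WT range of 109 to 205 CPM. Dlx2OE 2 and 3 had lower epithelial sums than every WT sample and higher Tfap2a and Tfap2b levels than every WT sample. Of the 16 epithelial markers, 2 were called lower by edgeR, Krt8 and Krt18, where 3.46% of all tested genes were called lower. Of the 16 log2 fold changes, 13 were below 0 (median -0.44). None was called higher in this test or by DESeq2, with 1 at an unadjusted p under 0.05, but Krt5 was called higher by edgeR without the filter on low counts. The summed level of 10 facial mesenchyme markers was 4390 to 4830 CPM in WT and 5050 to 5150 CPM in Dlx2OE. Of these 10, Twist1 and Twist2 were called higher by edgeR, where 2.99% of all tested genes were. DESeq2 called 4 of the 10 higher, where it called 7.05% of genes higher. Of the 10 log2 fold changes, 9 were above 0 (median 0.15). The most abundant, Col3a1 and Col1a2, differed by less than their spread. The part of the epithelial and mesenchymal shares in the AP-2 differences was not tested.

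Other lists held called genes as well, where edgeR called 2.99% of all tested genes higher and 3.46% lower. The 10 neuronal markers summed to 65.2 to 324 CPM in WT and 191 to 1030 CPM in Dlx2OE, highest in Dlx2OE 3, with a median log2 fold change of 1.37. None of the 10 was called by edgeR, with 3 higher at an unadjusted p under 0.05 and 1 called by DESeq2. Of 6 macrophage markers, C1qa and C1qb were called lower, with sums of 56.2 to 61.4 CPM in WT and 28.8 to 41.0 CPM in Dlx2OE. Of 6 erythroid markers, Hba-a1 and Alas2 were called lower, with sums of 3010 to 4140 CPM and 1880 to 2430 CPM. Of 6 melanoblast markers, Dct and Pmel were called higher, with sums of 33.3 to 39.4 CPM and 39.2 to 48.3 CPM. Brain and retina markers summed to 85.4 to 227 CPM in WT and 34.1 to 89.0 CPM in Dlx2OE, with Sox2 called lower and Rax and Barhl2 at or below the floor in all samples. Olfactory and vomeronasal markers, the tissue in which Tfap2e is best known, summed to 174 to 228 CPM and 149 to 308 CPM, with Trpc2 at or below the floor. EdgeR called none of the 6 tested markers each of glia and Schwann precursors (151 to 160 CPM in WT and 96.0 to 329 CPM in Dlx2OE), skeletal muscle (96.0 to 185 and 36.5 to 109 CPM) or endothelium (245 to 379 and 192 to 300 CPM). At an unadjusted p under 0.05 there were 1, 1 and 2 of them, and DESeq2 called 0, 0 and 2. With each sample left out in turn, Krt8 and Sox2 kept their calls in all 6 fits, Dct in 5 and Twist2 in 4, whereas C1qa, C1qb, Hba-a1, Alas2 and Pmel each kept theirs in 2. The part of these cell types in the AP-2 values was not tested.

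**Figure D5:**
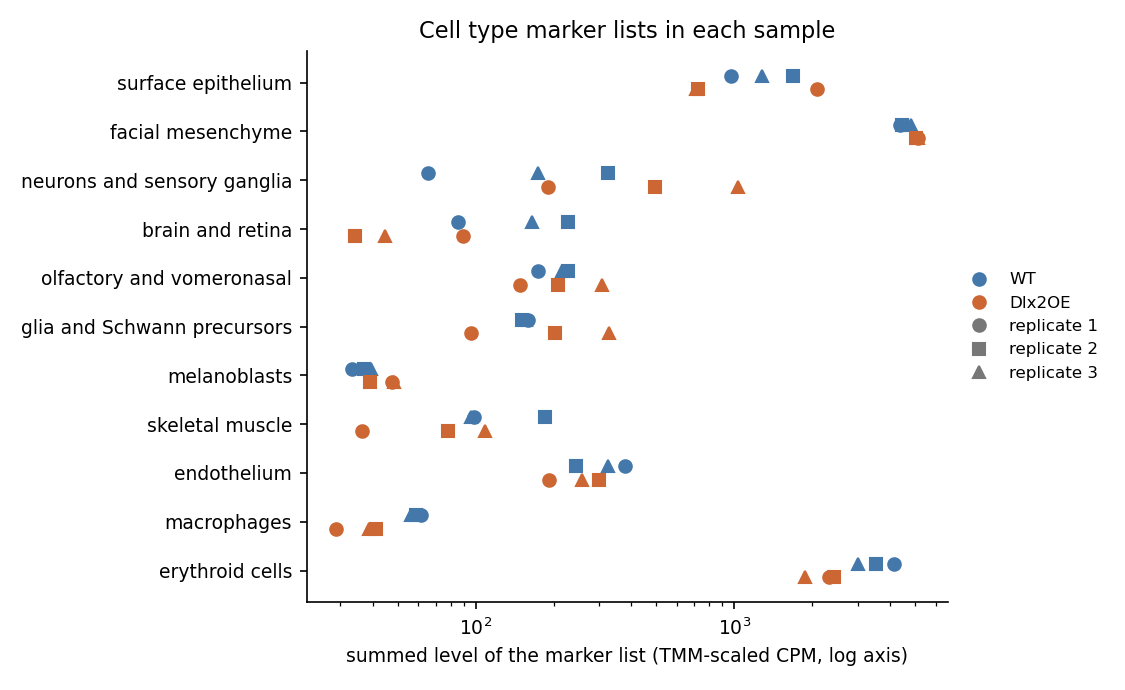
Summed level of each cell type marker list in each sample (TMM-scaled CPM, log axis), with blue for WT, orange for Dlx2OE and marker shapes for the replicate numbers. Dlx2OE 1 has the highest surface epithelium sum, 2090 CPM, and Dlx2OE 2 and 3 the lowest, while facial mesenchyme sums are 5050 to 5150 CPM in all 3 Dlx2OE samples.

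For each detected member, the genes with the most similar pattern over the 6 samples were taken from 13224 genes by the root mean square difference of centred log2 CPM, as a description without a test. Nearest to Tfap2a were Syne1 (0.128), a nuclear envelope gene, Shc3 (0.152), an adaptor of receptor tyrosine kinases, and Twist2 (0.17), the close relative of Twist1. Syne1 had 25.4, 21.6 and 24.9 CPM in WT and 102, 56.0 and 60.3 CPM in Dlx2OE. Nearest to Tfap2b were Tll1 (0.0973), a metalloprotease related to Bmp1, the homeobox gene Emx2 (0.165) and the rhomboid-like gene Rhbdl3 (0.177). Tll1 had 3.18, 5.21 and 6.22 CPM in WT and 25.3, 12.1 and 10.9 CPM in Dlx2OE. All 3 genes nearest to Tfap2a and all 3 nearest to Tfap2b were called higher (adjusted p from 0.0128 to 0.0402, edgeR), with log2 fold changes of 1.57 to 1.73, which their likeness to 2 called genes largely fixed. With a sample left out, the call was lost in 2 of 6 fits for Syne1, Twist2 and Emx2, in 3 for Shc3 and Rhbdl3 and in 4 for Tll1. Nearest to Tfap2c were Minar2 (0.0971), Bmp4 (0.127), a BMP ligand of the facial prominences, and Klhl8 (0.13), none of which was called. Bmp4 had 30.2, 28.7 and 33.6 CPM in WT and 53.2, 38.6 and 24.6 CPM in Dlx2OE, and so was highest in Dlx2OE 1 and lowest in Dlx2OE 3. The points share libraries and depth, and a likeness over 6 samples says nothing of shared function.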

How the data were processed

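RNA-seq counts of 6 samples were used, each from 1 file and grouped by the sample labels, with 3 replicates per genotype. The authors purified poly-A RNA, prepared libraries with a NEBNext Ultra kit, sequenced pairs of 150 bp reads, mapped them to mm10 with STAR 2.7.3a and counted them with HTSeq 0.12.4 in union mode (versions also in the submitters' processing notes). The values deposited by the authors are raw read counts per gene, without normalization. The annotation release and the strand setting are not given in the sources used here. Each file ends with 5 summary lines, which were kept out of library sizes and tests. Symbols, positions and exon lengths came from GENCODE M21, which holds 53706 of the 53801 identifiers.

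The test of counts was that of edgeR 4.0.16, run in R 4.3.3 (filterByExpr with a minimum count of 10, TMM, quasi-likelihood F test on genotype alone, Benjamini-Hochberg adjustment over 17514 genes). A gene was called at an adjusted p under 0.05. Log2 levels used a prior count of 2. Every adjusted p of a gene comes from this test unless DESeq2 1.42.0 is named. Sample totals of 26155500 to 31308813 counts set the precision. P-values measure the spread between these RNA samples, which the sources describe as taken from littermates.

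The members and gene lists were chosen with earlier results of these data known. Named list genes are up to 3 called genes in each direction by p and up to 2 uncalled genes by level, and for neighbours the overlapping and nearest coding genes. A few list genes are not reported here and are left out of the plot of the lists. Ep300, Kctd1, Kctd15, Cited1, Pax3, Id3, Foxd3, Alx1 and Epcam were named in addition, after their values were seen. Similar patterns were sought among tested genes with a mean log2 CPM of at least 1. Promoters came from RefSeq (GRCm38.p6), and the tables held entries for 4 of the 5 members, not for Tfap2c. Scripts were tested on simulated data. Alternatives were DESeq2, RLE factors, library size alone, other count filters, a replicate block, a loess correction for length and GC content (span 0.5), exon length of the longest transcript, and leaving out each sample. Plots used matplotlib 3.10.9 (Python 3.11.15).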

Additional observations from a re-analysis of the deposited data

How the results depend on the processing

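Tfap2a kept its direction and its call under all 8 other choices (log2 fold change 1.40 to 1.54), and Tfap2c kept its direction without a call (0.45 to 0.56). Tfap2b kept its direction but lost its call under the replicate block (1.49, adjusted p = 0.0921 by edgeR), the length and GC correction (1.54, adjusted p = 0.0536) and both together (1.44, adjusted p = 0.117), and the cause was not tested. With 1 sample left out, log2 fold changes were 1.14 to 1.70 for Tfap2a, 1.05 to 1.80 for Tfap2b, 0.21 to 0.71 for Tfap2c and 1.49 to 1.66 for Dlx2. Calls over all genes numbered 1130, with 2614 by DESeq2, 2044 without a filter on low counts, 577 with the length and GC correction and the block, 546 with a log2 fold change above 1 or below -1 required, and 79 (without WT 2) to 2091 (without WT 3) with a sample left out. The percent of calls that were higher in Dlx2OE was 46.4, and 35.5 with the length and GC correction and the block. Called genes among AP-2 partners numbered 2, with 4 by DESeq2, 1 with the length and GC correction, 1 with the block added to it, and 0 to 3 with a sample left out. Among AP-2 dependent genes there were 2, with 1 under the length and GC correction and 0 to 5 with a sample left out. Among neural crest specifiers there were 2, with 4 by DESeq2, 5 without a filter, 1 with the length and GC correction and the block, and 0 to 4 with a sample left out. With the longest transcript as gene length, the Tfap2b percent of the family in Dlx2OE was 48.1 in place of 52.8. With a sample left out, the Tfap2a percent was 13.9 to 16.7 in WT and 17.1 to 20.4 in Dlx2OE, the Tfap2b percent 37.3 to 44.0 and 50.2 to 54.7, and the Tfap2c percent 42.1 to 46.0 and 24.8 to 29.8.

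The replicate numbers in the labels are not described as pairs. Deviations of same-numbered samples from their group means correlated at -0.072, -0.211 and 0.073, and those of differently numbered samples at -0.204 to 0.345. With 3 samples per group these values are tied to each other, so they cannot show whether same-numbered samples were processed together. Under the replicate block, Tfap2a had a log2 fold change of 1.41 and Tfap2c of 0.45, and 961 genes were called. The block also called Sox9, a neural crest specifier, lower and left 1 specifier called higher. Not every sample correlated best with its own number. Tfap2d and Tfap2e gave no value to vary. Depth limits what can be said of genes near 3 counts, such as these and the antisense genes of Tfap2a.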
